A study of Rattus norvegicus with 4 samples.

Results

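Iron uptake, storage and haem handling were followed through 10 genes in the lining of the rat middle ear: TFRC, SLC11A1, SLC11A2, SLC40A1, FTH1, FTL, HMOX1, CP, TF and HP. They were found by gene symbol in a table of 27832 features, taking for each symbol the feature with the highest mean level. All 10 symbols were found. Of these, 9 averaged 1 FPKM or more (fragments per kilobase of transcript, scaled to the mapped fragments of a library) and FTL was listed at 0 in all 4 libraries. The background was the 15944 features of the table that reached this mean.

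Sprague-Dawley rats (labelled SD) received into the middle ear either medium alone (media), methicillin-resistant Staphylococcus aureus (MRSA), Pseudomonas aeruginosa (PA) or a mixed culture of the species (MRSA + PA). Bacteria were given through the eardrum as 50 µL holding 10000000 CFU, and the mucosa was scraped off for RNA 1 week later. No strain, allele or agent other than the inoculum separated the groups, and the age of the rats is not given in the sources used here. Each condition had 1 library, and the sources used here do not say how many rats gave RNA to it, so every comparison below sets 1 library against 1 library, without a test or an error estimate.

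Iron reaches most cells as transferrin-bound iron, which the transferrin receptor carries into endosomes, where a divalent metal transporter moves it into the cytosol. Surplus iron is stored inside the ferritin shell or leaves through ferroportin, and haem is opened by haem oxygenase, which frees its iron. During infection the host withholds iron from bacteria, and macrophages, which recycle iron from red blood cells, are central to this.

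The libraries differed in more than iron genes. Features shorter than 300 bp held between 49.2% and 63.1% of all FPKM, so the scale of a library depends on how they are treated: with equal FPKM sums the median of all tested features shifted to a log2 difference of -0.21 for MRSA and of 0.23 for MRSA + PA, both 0.05 as deposited. EPCAM, an epithelial adhesion protein, was between 222 and 266 FPKM in all 4 libraries, and the 11 airway epithelium markers had a median log2 difference from media of 0.17 for MRSA, 0.11 for PA and -0.47 for the mixed inoculum. The 10 T cell markers (medians 1.75 to 1.91) and the 7 B and plasma cell markers (0.76 to 1.25) had medians above media, and all 8 myelin markers were highest in media (-1.31 to -1.23). The 10 skeletal muscle markers summed to 5.26 FPKM in MRSA + PA, 11.4 in PA, 3106 in MRSA and 7938 in media. In tissue RNA of this kind, fewer cells of a type and less RNA per cell cannot be told apart.

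Against media, SLC11A1, HMOX1 and FTH1 were at least 2-fold higher in MRSA, SLC11A1 and HMOX1 in PA, and SLC11A1 and TFRC in MRSA + PA, and no member was 2-fold lower in any of these comparisons. Log2 differences compare the FPKM of 2 libraries, each raised by 0.1 FPKM so that zeros can be used, and 2-fold is 1 on that scale. In MRSA 3 of the 9 members that passed the filter were 2-fold higher, where 8.47% of all features tested were higher and 4.95% lower. In PA it was 2 of 9, against 10.0% of features higher and 7.80% lower. In MRSA + PA it was again 2 of 9, against 7.78% higher and 7.83% lower. The members' median log2 difference was 0.27 in MRSA, 0.51 in MRSA + PA and 0.30 in PA, beside 0.05, 0.07 and 0.05 for all features tested (MRSA, PA, then MRSA + PA). With equal FPKM sums both MRSA medians moved down together, to 0.0003 for the members and -0.21 for all features. The 3 comparisons share the media library, so any deviation of that library enters all of them.

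**Figure D1:**
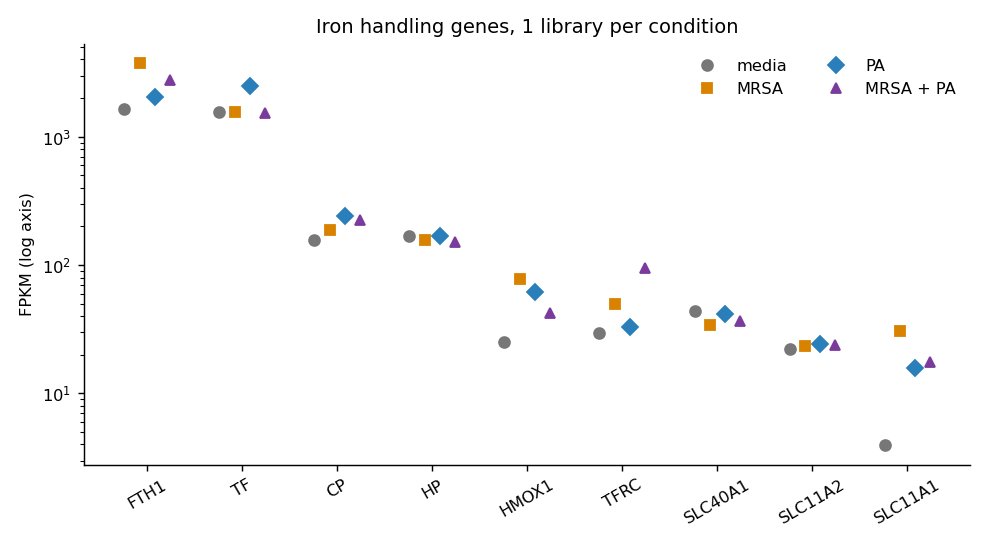
FPKM (log axis) of the 9 iron handling genes above 0, with 1 point for each library and genes ordered by their mean. FTH1 and TF are the highest of the genes in all 4 libraries, with TF never under 1539 FPKM, while SLC11A1 spans the widest range, from 3.93 FPKM in media to 30.6 in MRSA. FTL, at 0 in all libraries, is not drawn.

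By mean level over the 4 libraries, FTH1 came first with 2545 FPKM, rank 52 of the features tested, and TF second with 1782 FPKM, rank 74. CP (202 FPKM) and HP (162 FPKM) followed, then HMOX1 and TFRC (51.9 FPKM each), SLC40A1 (39.1 FPKM), SLC11A2 (23.5 FPKM) and SLC11A1 (17.0 FPKM). This order held only on average: in PA the level of TF exceeded that of FTH1, and in media that of HP exceeded that of CP. With 1 library per condition no neighbours in the order could be separated by a spread.

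TFRC, transferrin receptor 1 (chromosome 11, 74479841 to 74502561, minus strand, in the table's own coordinates, for which no genome build is named), brings transferrin-bound iron into the cell. The media library gave 29.5 FPKM and the PA library 33.1, whereas MRSA reached 49.4 and MRSA + PA 95.6. The mixed inoculum thus stood apart from the other 3 libraries. It was 3.24-fold above media (log2 difference 1.69), 2.88-fold above PA (1.53) and 1.94-fold above MRSA (0.95). Among all features tested, 96.7% had a smaller log2 difference from media, 98.8% a smaller one from PA and 98.2% a smaller one from MRSA. TFRC was the only member at least 2-fold apart between inoculated libraries. In MRSA + PA against PA 1 of 9 members was 2-fold higher and 0 lower, where 2.50% of features were higher and 4.27% lower. In MRSA + PA against MRSA 0 members passed in either direction, where 1.61% of features were higher and 5.73% lower, although with libraries rescaled to equal FPKM sums TFRC differed by 1.40 in log2 and passed. That rescaling also moved the median of all features tested in this comparison, from -0.01 to 0.43. In PA against MRSA 0 members passed, where 3.54% were higher and 5.03% lower.

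Dividing cells are known to carry much transferrin receptor, so markers of division were set beside TFRC. All 12 division markers were higher in each inoculated library than in media (11 of 12 in MRSA with equal FPKM sums), with a median log2 difference of 1.14 in MRSA, 1.24 in MRSA + PA and 1.48 in PA. PA had the highest median of the 3 and the lowest TFRC of the inoculated libraries. Between MRSA + PA and PA the 12 markers ranged from -0.87 to 0.10 in log2, where TFRC differed by 1.53. Between MRSA + PA and MRSA they ranged from -0.18 to 0.35, where TFRC differed by 0.95. MKI67, a protein of proliferating nuclei, was measured at 2.78 FPKM in MRSA + PA, 5.15 in PA, 3.04 in MRSA and 1.20 in media. T cell markers, 10 genes, ranged from -0.76 to 0.86 in log2 between MRSA + PA and PA. The part of these cells in the level of TFRC was not tested.

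The promoter of Tfrc and that of Slc40a1 are shown because they belong to the member that stood apart in MRSA + PA and to the iron exporter it was set against. The 250 bases before the RefSeq start of each gene (GRCr8, chr11:81690319-81690568 and chr9:55543461-55543710, both on the minus strand) are printed 5′ to 3′ in the direction of transcription, with matches to ACGTG, the core recognised by hypoxia-inducible factors, to TGACGT, part of a cyclic AMP response element, and to GGGCGG, a GC box, on either strand in capitals.
Tfrc: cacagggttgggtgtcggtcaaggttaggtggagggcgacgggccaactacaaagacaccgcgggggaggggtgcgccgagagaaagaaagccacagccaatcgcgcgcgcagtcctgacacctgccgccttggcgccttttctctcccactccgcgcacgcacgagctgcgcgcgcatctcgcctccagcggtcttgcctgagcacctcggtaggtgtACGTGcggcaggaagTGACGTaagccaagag
Slc40a1: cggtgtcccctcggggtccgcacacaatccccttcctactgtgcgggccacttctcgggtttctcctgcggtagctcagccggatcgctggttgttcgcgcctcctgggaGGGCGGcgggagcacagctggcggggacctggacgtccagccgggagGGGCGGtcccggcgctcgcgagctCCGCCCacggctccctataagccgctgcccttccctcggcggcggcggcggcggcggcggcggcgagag
The Tfrc stretch held ACGTG 31 bases and TGACGT 16 bases before the start, without overlap. Neither was found on either strand of the Slc40a1 stretch, where the GC box occurred 3 times and the Tfrc stretch held none. Among 33469 rat windows of the same length, 16.6% held ACGTG, 6.95% TGACGT and 30.5% GGGCGG on either strand, and ACGTG and TGACGT can overlap in the sequence TGACGTG. The RefSeq table held a window for 5 of the 10 members (also SLC11A2, CP and TF). These matches describe letters, not bound sites.

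SLC40A1, ferroportin, is the only known iron exporter of mammalian cells. It lay on chromosome 9 (52560181 to 52578144) and was highest in media, at 44.0 FPKM, followed by PA at 41.8, MRSA + PA at 36.6 and MRSA at 34.0. Its libraries lay within 1.29-fold of each other, and with equal sums over features of at least 300 bp PA, not media, was the highest. A second SLC40A1 feature on the same chromosome was listed at 0 in media and MRSA and did not exceed 0.0757 FPKM elsewhere. The TFRC to SLC40A1 ratio, which does not depend on how a library is scaled, was 2.61 in MRSA + PA, 0.792 in PA, 1.45 in MRSA and 0.669 in media.

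SLC11A2 (DMT1) and SLC11A1 (NRAMP1) are related metal transporters, the former moving iron out of endosomes in most cells, the latter pumping metal ions out of the phagosome of macrophages and neutrophils. SLC11A2 on chromosome 7 (139833574 to 139870644) differed little on the deposited scale, with 24.0 FPKM in MRSA + PA, 24.3 in PA, 23.3 in MRSA and 22.2 in media, a span of 1.10-fold. SLC11A1 on chromosome 9 (81420561 to 81431459) had 3.93 FPKM in media and 30.6 in MRSA, with PA (15.7) and MRSA + PA (17.6) between them. This was the widest span of the members, 7.80-fold. Its log2 difference from media was 2.93 in MRSA, 2.14 in MRSA + PA and 1.97 in PA, larger than that of 98.7%, 98.0% and 96.3% of the features tested, respectively. Set against SLC11A2 in the same library, its level gave a ratio of 0.735 in MRSA + PA, 0.645 in PA, 1.31 in MRSA and 0.177 in media.

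**Figure D2:**
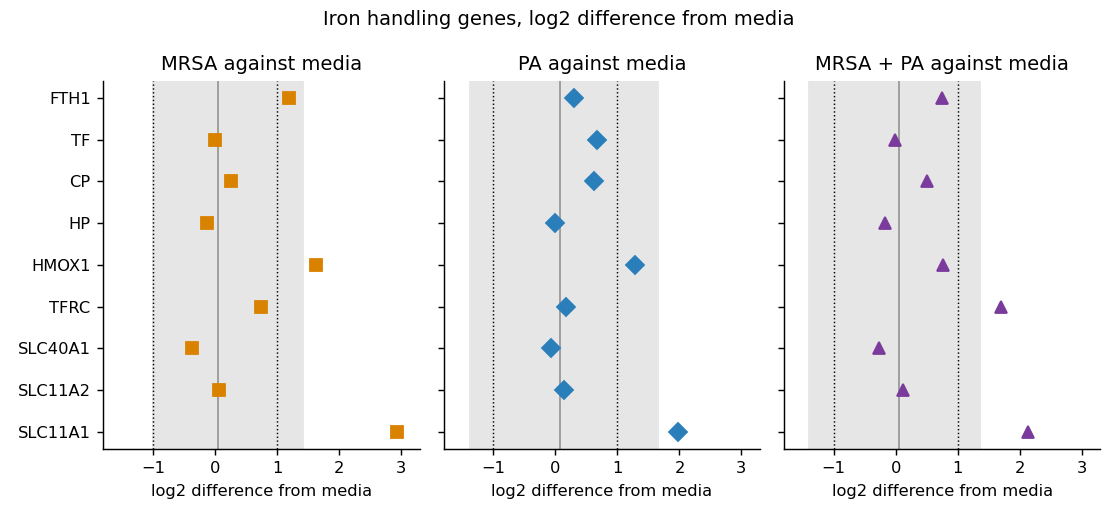
Log2 difference from media of the 9 members above 0 (points) in MRSA, PA and MRSA + PA, with the central 90% of all 15944 features tested in grey, their median as a solid line and 2-fold as dotted lines. SLC11A1 lies to the right of the grey band in all 3 panels, HMOX1 in MRSA and TFRC in MRSA + PA, whereas SLC40A1, SLC11A2 and HP stay near 0.

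SLC11A1 is a gene of phagocytes, and markers of these cells were set beside it. The 13 macrophage and monocyte markers tested summed to 2142 FPKM in MRSA + PA, 2237 in PA, 3040 in MRSA and 921 in media, the same order of media and MRSA at the ends as SLC11A1. SLC11A1 differed from media by more than 12 of the 13 in MRSA, 13 in MRSA + PA and 10 in PA. EMR1, the F4/80 antigen of macrophages, was found at 19.7, 112, 74.3 and 77.0 FPKM (4 values without names stand in the sequence media, MRSA, PA, MRSA + PA here and below), and GPNMB, a glycoprotein of activated macrophages, at 177, 1187, 743 and 648 FPKM. GPNMB alone gave 1187 of the 3040 FPKM of the list in MRSA. MARCO, a scavenger receptor of some tissue macrophages, was listed at 0 in media, MRSA and PA. The 9 neutrophil markers tested had a median log2 difference of 0.50 in MRSA, 0.36 in MRSA + PA and 0.04 in PA and did not move as a group: CSF3R, the receptor for the neutrophil growth factor, was at 2.25, 9.04, 30.4 and 10.1 FPKM, while MPO, a granule enzyme made by neutrophil precursors, was at 3.55, 2.61, 1.52 and 2.75 FPKM. The part of these cells in the level of SLC11A1 was not tested.

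**Figure D3:**
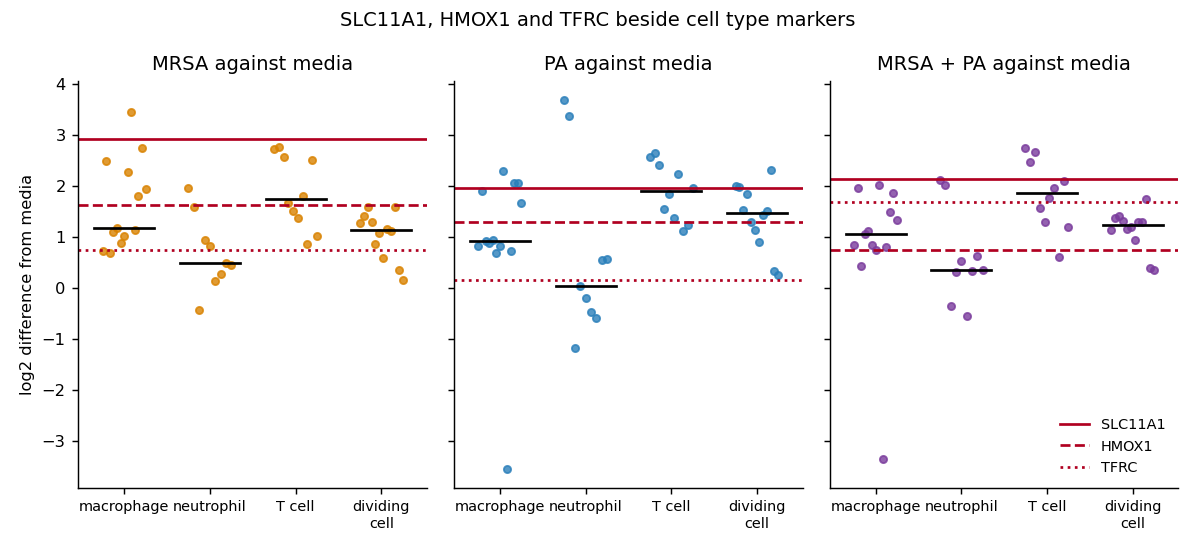
Log2 difference from media of each macrophage, neutrophil, T cell and dividing cell marker (points, with list medians as bars) and of SLC11A1, HMOX1 and TFRC (red lines). TFRC lies below the dividing cell median in MRSA and PA and above it in MRSA + PA, where HMOX1 falls below the macrophage median of 1.07. The lowest macrophage point is LYZ2, at -3.55 in PA and -3.36 in MRSA + PA.

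Ferritin stores iron in a shell of heavy and light chains, of which the heavy chain oxidises iron and the light chain helps to form the mineral core. FTH1, the heavy chain (chromosome 1, 232979054 to 232981410), was at 1646 FPKM in media and at 3748 in MRSA. PA, at 2030 FPKM, was close to media and MRSA + PA, at 2757, lay between PA and MRSA. Against media these are log2 differences of 1.19 for MRSA, 0.30 for PA and 0.74 for the mixed inoculum. With libraries rescaled to equal FPKM sums the MRSA difference was 0.92, below 2-fold, and MRSA no longer stood above MRSA + PA (log2 difference of MRSA + PA from MRSA 0.0009, as deposited -0.44). FTH1 differed from media by more than 7 of the 13 macrophage markers in MRSA, 2 in MRSA + PA and 1 in PA, and the part of these cells in its level was not tested.

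The symbol FTL, carried by 2 features on chromosomes 9 and X, was listed at 0 in every library, and it is the rat symbol FTL1 under which the table gives the light chain. FTL1 is thus no member by symbol but stands for the same protein. Its main feature (chromosome 1, 102527141 to 102528775) was at 810 FPKM in MRSA + PA, 633 in PA, 1158 in MRSA and 443 in media. As deposited, the libraries were ranked as for FTH1, with log2 differences from media of 1.39 for MRSA, 0.52 for PA and 0.87 for the mixed inoculum. Heavy and light chain kept a similar proportion, with an FTH1 to FTL1 ratio of 3.41 in MRSA + PA, 3.21 in PA, 3.24 in MRSA and 3.72 in media.

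Ferritin genes have many near-identical copies in the rat genome, and the table splits them over several features. FTH1 had 4 features and FTL1 13, of which 2 and 7 were above 0 in some library. The main FTH1 feature held 97.3% to 98.9% of the FPKM of its symbol, the main FTL1 feature 67.4% to 74.3%. A 333 bp FTH1 feature on chromosome 3 was at 75.3 FPKM in MRSA + PA, 23.0 in PA, 102 in MRSA and 22.8 in media, and an FTL1 feature on chromosome 13 at 112, 322, 235 and 313 FPKM. All 7 ferritin features that averaged 1 FPKM or more were lowest in media, and 6 were highest in MRSA, whereas with equal FPKM sums 6 were lowest in media, 2 highest in MRSA and 5 highest in MRSA + PA. How many reads each copy gave is uncertain, since the authors' counting shares reads that match several places. Summed over all features of the symbol, FTH1 had 1668, 3850, 2053 and 2832 FPKM and FTL1 596, 1603, 925 and 1201 FPKM.

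**Figure D4:**
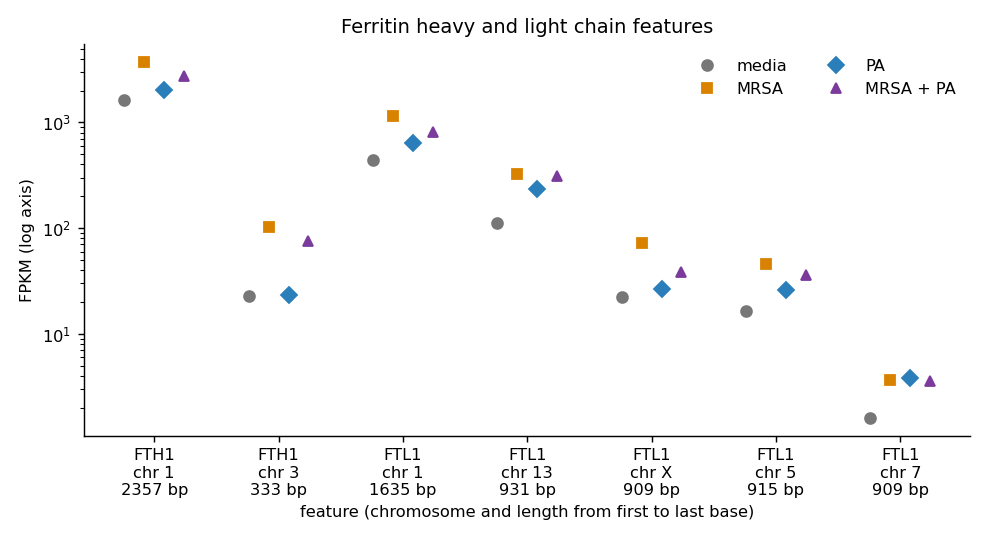
FPKM (log axis) in the 4 libraries of the FTH1 and FTL1 features that averaged 1 FPKM or more, labelled by chromosome and length. On the deposited scale drawn here media is the lowest point of each of the 7 features, and MRSA the highest in all but the FTL1 feature on chromosome 7, where PA (3.80 FPKM) is just above MRSA (3.66).

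HMOX1, haem oxygenase 1, splits haem into iron, carbon monoxide and biliverdin and is induced by haem and oxidants. On chromosome 19 (25621920 to 25629372) it had 42.6 FPKM in MRSA + PA, 61.7 in PA, 78.1 in MRSA and 25.1 in media. All inoculated libraries were above media, and the mixed inoculum was nearest to it, with log2 differences of 1.63 for MRSA, 1.29 for PA and 0.76 for MRSA + PA. HMOX2, the constitutive form, was at 19.7, 19.7, 17.9 and 19.6 FPKM (named after its values were seen). The HMOX1 to HMOX2 ratio was therefore 2.18 in MRSA + PA, 3.44 in PA, 3.98 in MRSA and 1.28 in media. Against the macrophage markers, HMOX1 differed from media by more than 7 of the 13 in MRSA, 3 in MRSA + PA and 8 in PA.

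The remaining members encode proteins best known from blood plasma, and all of them had sizeable levels in the mucosa. TF, transferrin, carries ferric iron (chromosome 8, 111063851 to 111112857). Its level was 1551 FPKM in media, 1555 in MRSA and 1539 in MRSA + PA, with PA alone higher at 2483, 1.60-fold above media. CP, ceruloplasmin, a copper ferroxidase that loads iron onto transferrin (chromosome 2, 124466805 to 124523910), was lowest in media at 157 FPKM, with 188 in MRSA, 223 in MRSA + PA and 240 in PA, 1.53-fold above media. HP, haptoglobin, which binds free haemoglobin (chromosome 19, 52921330 to 52925933), ranged only from 151 FPKM in MRSA + PA to 170 in media, with MRSA at 156 and PA at 170. None of the 3 was 2-fold apart in any pair of libraries. ALB (albumin), the defining secreted product of liver, was listed at 0 in all 4 libraries. Of the 12 markers of liver secretion 3 averaged 1 FPKM or more, and these, FGG, SERPINA1 and HPX, were highest in PA, at 10.5, 2.80 and 3.12 FPKM against 0.0307, 0.815 and 0.894 in media. The part of plasma or liver-type secretion in TF, CP and HP was not tested. Set against its receptor in the same library, the TF to TFRC ratio was 16.1 in MRSA + PA, 75.1 in PA, 31.5 in MRSA and 52.7 in media.

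Of the 9 members above 0, SLC11A2, SLC40A1 and HP stayed within 1.3-fold over the 4 libraries as deposited, or 33.3%, beside 32.6% of all features tested.

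A further 7 lists of iron and haem genes were followed to place the members. Their medians lay near 0 in most comparisons, and single genes stood out. Of 14 other genes of iron entry and trafficking tested, FTL1 was 2-fold higher in MRSA, and SCARA5, a ferritin receptor, was lower in PA and MRSA + PA, with 5.02 FPKM in MRSA + PA, 4.65 in PA, 8.84 in MRSA and 14.6 in media. PCBP1 and PCBP2, chaperones that deliver cytosolic iron, stayed between 150 and 167 FPKM and between 121 and 132 FPKM. CYBRD1, an iron reductase, was represented by a 153 bp feature at 60.9, 0, 232 and 0 FPKM, which lies on the opposite strand within a longer CYBRD1 feature of 29537 bp at 32.5, 26.6, 30.7 and 26.5 FPKM, so the short feature alone puts CYBRD1 past 2-fold. List medians (log2 difference from media) were 0.02 in MRSA, 0.14 in MRSA + PA and 0.16 in PA.

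Of 12 genes of the hepcidin axis and iron-responsive control, 0 were 2-fold higher in any inoculated library, beside 7.78% to 10.0% of features. In each inoculated library 1 gene was 2-fold lower, beside 4.95% to 7.83% of all features tested. That gene was HFE2, the hepcidin coregulator hemojuvelin, known from liver and skeletal muscle. Its 41.2 FPKM in media and 16.1 in MRSA compared with 0.0377 in PA and 0 in MRSA + PA, the order of the muscle markers (CKM, muscle creatine kinase, 1028, 409, 0.187 and 0.0901 FPKM). The part of muscle tissue in this difference was not tested. HAMP, hepcidin itself, did not reach a mean of 1 FPKM and was highest in media at 0.739 FPKM. ACO1, the iron-regulatory protein 1, was at 24.5, 30.8, 31.1 and 27.5 FPKM, and FBXL5, which marks the other iron-regulatory protein for degradation when iron is ample, at 37.1, 40.3, 44.7 and 43.0 FPKM. The list median was -0.16 for MRSA, -0.02 for PA and -0.03 for MRSA + PA in log2.

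Haem synthesis enzymes were within 2-fold of media except ALAS2, with list medians of 0.02 for MRSA, -0.12 for PA and -0.02 for MRSA + PA. Of 10 enzymes and partners, 0 were 2-fold higher and only ALAS2, the red cell form of the first enzyme, was lower, at 7.85 FPKM in MRSA + PA, 4.46 in PA, 9.51 in MRSA and 56.0 in media. Between 7.78% and 10.0% of all features tested were 2-fold higher in an inoculated library, and between 4.95% and 7.83% lower. ALAS1, the form of other cells, was at 27.7, 28.7, 23.2 and 24.3 FPKM and UROD, a later enzyme, at 51.3, 53.8, 47.1 and 51.5 FPKM. All 6 erythroid markers tested, ALAS2 among them, were highest in media, with a sum of 2138 FPKM in MRSA + PA, 1177 in PA, 2280 in MRSA and 11624 in media. The part of red cell precursors or retained blood in the level of ALAS2 was not tested.

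For uptake, export and breakdown of haem, 12 genes were tested, and 2 were at least 2-fold higher than in media in PA, 0 in MRSA and 0 in the mixed inoculum, with list medians of -0.04, 0.07 and 0.09. Of all features tested, 10.0% were 2-fold higher in PA, 8.47% in MRSA and 7.78% in the mixed inoculum. CD163, the macrophage receptor for haemoglobin bound to haptoglobin, had 5.77 FPKM in MRSA + PA, 12.7 in PA, 6.47 in MRSA and 5.93 in media. It was thus highest in PA, as were 3 of the 13 macrophage markers, while 9 of them were highest in MRSA and 1 in MRSA + PA. HPX, hemopexin, which binds free haem, was at 0.894, 1.24, 3.12 and 1.07 FPKM. FLVCR2, a haem and choline transporter, was instead highest in MRSA + PA, at 89.7 FPKM against 63.1 in media, 60.5 in MRSA and 53.3 in PA. BLVRA, which reduces biliverdin, was at 24.1, 35.5, 30.9 and 31.4 FPKM.

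Genes of iron-sulfur cluster assembly were lower in PA than in the other inoculated libraries, in 9 to 12 of 12 genes depending on the scaling. With median-of-ratios scaling 1 of 12 was 2-fold lower in PA than in media. As deposited, none of 12 was 2-fold apart from media, where 13.4% to 17.8% of all features tested were. But 12 of 12 were lower in PA than in MRSA (median log2 difference -0.34, all features -0.003) and 12 of 12 were higher in MRSA + PA than in PA (median 0.36, all features -0.03). Both counts use the PA library. With equal FPKM sums 9 of 12 were lower in PA than in MRSA (median -0.10, all features 0.24) and 12 of 12 higher in MRSA + PA than in PA (median 0.55, all features 0.16), and with equal sums over features of at least 300 bp it was 12 of 12 and 11 of 12. ISCU, the scaffold on which clusters are built, had 44.5 FPKM in MRSA + PA, 44.2 in PA, 63.0 in MRSA and 84.7 in media. It counts among the 12 higher in MRSA + PA than in PA by a log2 difference of only 0.009.

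The list of proteins that keep iron or other metals from bacteria held 4 tested genes, the secreted LCN2, S100A8 and S100A9 and the receptor SLC22A17, and its median was 0.48 for MRSA, 0.56 for PA and 0.45 for MRSA + PA. LCN2, which captures bacterial siderophores, was at 72.7 FPKM in MRSA + PA, 513 in PA, 115 in MRSA and 49.7 in media, so PA alone stood 10.3-fold above media and the mixed inoculum 1.46-fold. S100A8 and S100A9, the subunits of calprotectin, were at 196, 277, 287 and 306 FPKM and at 164, 226, 243 and 210 FPKM. LTF, lactoferrin, an iron binder of neutrophil granules and glands, was listed at 0 in media, MRSA and MRSA + PA and at 0.0309 FPKM in PA. SLC22A17, a receptor for the LCN2 protein, was highest in media, at 42.3 FPKM against 24.1 to 29.2 in the inoculated libraries.

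Oxidant response genes, which share regulators with HMOX1, had list medians above media, 0.34 for MRSA, 0.32 for PA and 0.40 for the mixed inoculum. With equal FPKM sums these were 0.08, 0.30 and 0.58, beside -0.21, 0.05 and 0.23 for all features. Of 13 genes, 0 were 2-fold lower with any inoculum, where the share among all features tested was 4.95% to 7.83%. With each inoculum 2 of the 13 were 2-fold higher, where that share was 7.78% to 10.0%. These were SLC7A11, the cystine importer, at 0.847, 4.81, 4.74 and 3.02 FPKM, and SRXN1, sulfiredoxin, at 7.84 FPKM in MRSA, 5.51 in MRSA + PA and 6.08 in PA, which is 3.31-fold, 2.34-fold and 2.58-fold above media. Both were higher in MRSA than in MRSA + PA, as HMOX1 was. Of the 13 genes, 10 were lower in MRSA + PA than in MRSA as deposited, but 3 with equal FPKM sums. NFE2L2, the transcription factor NRF2, was at 52.7, 92.4, 80.6 and 80.3 FPKM.

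**Figure D5:**
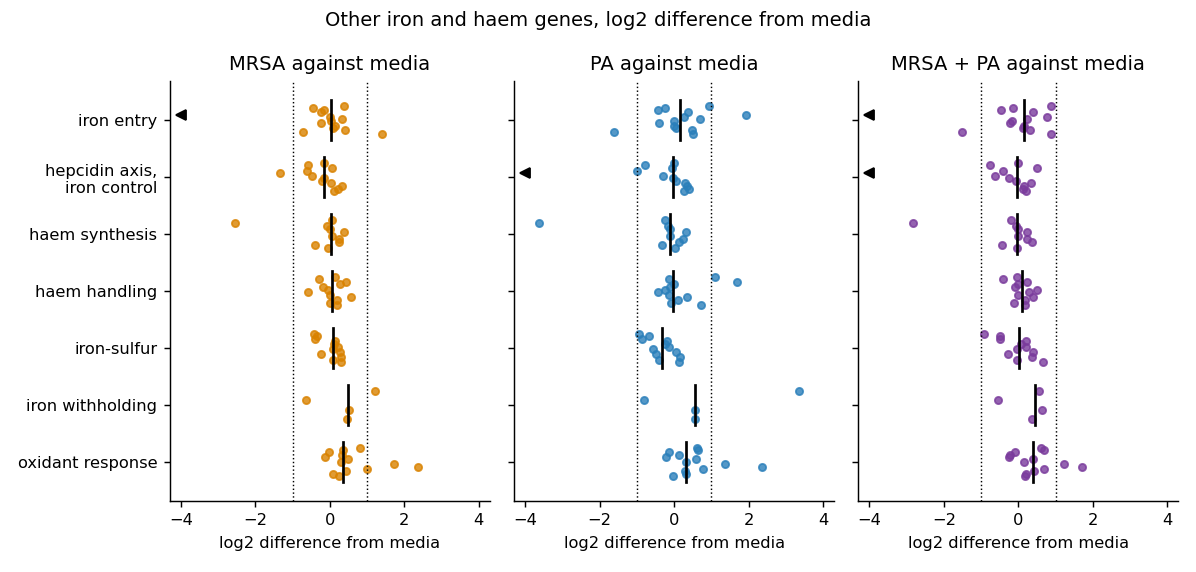
Log2 difference from media of each gene in 7 further iron and haem lists (points, with list medians as bars and 2-fold as dotted lines) for MRSA, PA and MRSA + PA. Most points lie between the dotted lines. Black triangles at the left edge mark values beyond the axis, the 153 bp feature of CYBRD1 (-9.25 in MRSA and MRSA + PA) and HFE2 (-8.23 in PA and -8.69 in MRSA + PA), and the far right point in PA is LCN2 at 3.37.

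The genes nearest in pattern to the 3 members with the widest span were sought among 10317 other named genes averaging 5 FPKM or more, by the distance between their log2 differences from media in the 3 inoculated libraries. Nearest to SLC11A1 were CD72, a B cell surface protein (distance 0.22), IGJ, the joining chain of IgA and IgM (0.27), and NCF1, a subunit of the phagocyte oxidase (0.34). TFRC had CCL19, a chemokine of lymphoid tissue (0.35), LAT2, a signalling adaptor of lymphoid and myeloid cells (0.40), and ITGB3, an integrin chain (0.43). CCL19 was at 24.1 FPKM in MRSA + PA, 5.87 in PA, 10.4 in MRSA and 6.17 in media, and ITGB3 at 33.2, 43.2, 34.7 and 93.6 FPKM. HPSE (heparanase, 0.28), LST1 (0.30) and CD36, a lipid scavenger receptor (0.30), were nearest to HMOX1. These distances rest on 4 libraries that all gene pairs share, and describe likeness only.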

How the data were processed

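The authors sequenced RNA of rat middle ear mucosa under 4 conditions (1 library for each), and groups were taken from the inoculum in the sample labels. The authors' deposited expression table gives FPKM per feature, made from quality-filtered reads with STAR 2.3.0e and Cufflinks 2.1.1 (named in the submitters' processing notes) with correction for fragment bias and for reads that match several places. According to the methods the human reference was used, whereas the features lie on rat chromosomes. The build is not given in the sources used here. The 3 deposited comparison tables hold the authors' own scaled values, log2 ratios, p-values and q-values and were not used. The authors give the range of raw reads over the samples, but FPKM does not give the read count behind a single value.

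In 6 comparisons, 0.1 FPKM was added to both values before their log2 ratio was taken, and features averaging under 1 FPKM were left out. No p-value was computed. The code that counts features past 2-fold was checked on simulated data, and the counts themselves were not tested. The members, the 7 further iron lists and the 10 marker lists, written from textbook knowledge, were chosen with earlier results of these data known. All members were named, and in each other list the 4 genes with the highest mean and the 3 furthest from media were eligible to be named. CCL19, LAT2, ITGB3 and the other genes of like pattern follow from the distance rule, while LTF, HAMP, MARCO, ALB, FGA, HMOX2 and the longer CYBRD1 feature were named after their values were seen. Promoter sequences are from RefSeq (GRCr8). Alternatives were 1 or 0.01 FPKM added, median-of-ratios scaling, equal FPKM sums over all features or over those of at least 300 bp, no filter or a higher one (5 FPKM), 1.5-fold or 3-fold, and the sum over all features of a symbol. Python 3.11.15, numpy 2.4.6, pandas 2.3.3 and matplotlib 3.10.9 were used.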

Additional observations from a re-analysis of the deposited data

How the results depend on the processing

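No paired analysis was possible because each condition had 1 library, and no library could be left out. Of 432 member differences recomputed under another pseudocount, scaling, filter or feature choice, 415 kept their sign and their side of 2-fold, 15 changed sign, none of them 2-fold apart, and 2 crossed 2-fold. Part of the 415 could not have changed. The other filters left the values of all 9 members as they were, since the lowest mean was 17.0 FPKM (SLC11A1). Summing features could alter only FTH1 and SLC40A1, the tested members with more than 1 feature. Both crossings came with equal FPKM sums: FTH1 in MRSA against media (0.92) and TFRC in MRSA + PA against MRSA (1.40), which made 1 member 2-fold apart there in place of 0. The medians of all features tested moved the same way, to -0.21 in the former comparison and 0.43 in the latter. With 1.5-fold, in either direction, 4 of 9 members were apart in PA against media (33.6% of all features tested) and 4 in MRSA + PA against media (29.1%), 3 in MRSA + PA against MRSA (14.9%), 2 in MRSA + PA against PA (15.9%) and 3 in PA against MRSA (18.0%). With 3-fold, 1 member was apart in PA against media (9.40%) and 0 in MRSA + PA against PA (3.34%). The other counts were within 1.5 times those reported. Read counts of single features were not at hand, which limits the values of the weakest genes, such as HPX and SLC7A11 in media.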

Other observations

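Secreted proteins outside the iron lists had no common order of the libraries. BPIFA1, an abundant airway secretion, was at 25725, 11118, 7472 and 13362 FPKM in the sequence media, MRSA, PA, MRSA + PA, which holds for 4 values without names below, and SCGB3A2, a secretoglobin, at 249, 123, 118 and 103 FPKM, so both were highest in media. Of the 11 airway epithelium markers 5 were highest in PA, 3 in media, 2 in MRSA and 1 in MRSA + PA. FGG, the gamma chain of fibrinogen, had 1.77 FPKM in MRSA + PA, 10.5 in PA, 2.98 in MRSA and 0.0307 in media, although the alpha chain FGA was listed at 0 in each library. SERPINA1, an inhibitor of neutrophil elastase, was at 0.815, 1.78, 2.80 and 0.700 FPKM. MUC5B, a gel-forming mucin of glands and airway surfaces, was at 8.82, 16.5, 86.1 and 5.40 FPKM, and CXCR2, a chemokine receptor of neutrophils, at 1.37, 4.35, 15.2 and 5.89 FPKM. With 1 library per condition, differences between rats and between inocula cannot be told apart. The 3 tested markers of liver secretion summed to 16.4 FPKM in PA, of which FGG gave 10.5, to 6.0 in MRSA, to 3.54 in MRSA + PA and to 1.74 in media.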
